A study of Mus musculus with 3 samples.

Results

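The 7 genes described here make and load MHC class II molecules: H2-Aa, H2-Ab1 and H2-Eb1, which encode the chains of the surface molecule, Cd74, H2-DMa, H2-DMb1 and Ciita. They were chosen by name, and all 7 were found among the 27998 genes counted in 3 single-cell libraries of mouse bone marrow. The marrow cells were sorted as negative for the dead-cell dye DAPI, negative for lineage markers and positive for the receptor c-kit. Control cells were taken from a C57BL/6 mouse of wild-type genotype. The non_mCherry and mCherry libraries came from another C57BL/6 mouse, which carried Mx1-Cre and, on 1 allele, a conditional Runx1-Runx1t1 knock-in (AML1/ETO) with mCherry downstream of it. Poly(I:C) switches the allele on through the interferon-responsive Mx1 promoter, and cells of this mouse without mCherry, described as not having responded, make up non_mCherry. Poly(I:C) treatment of the control mouse, the time from treatment to harvest and the age of the mice are not stated in the labels. By its title the series is about fatty acid metabolism and a differentiation block in pre-leukemia. Each group was 1 library from 1 mouse, so no value below has a replicate check, no test was possible, and every 95% interval covers counting error only.

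MHC class II molecules show peptides from outside the cell to CD4+ T cells. An alpha and a beta chain pair in the endoplasmic reticulum around the invariant chain, which Cd74 encodes and which blocks the groove until it is cut away in the lysosome. H2-DM, made from H2-DMa and H2-DMb1, then exchanges the last invariant chain fragment for a peptide. C57BL/6 mice lack a working alpha chain for H2-Eb1, so the A molecule of H2-Aa and H2-Ab1 is the one on their cells. Among blood cells, high levels are known from dendritic cells, B cells and some monocytes and macrophages. Ciita, the transactivator, binds no DNA itself but joins the RFX, CREB and NF-Y proteins that sit on the X and Y boxes before these genes, and its amount sets how strongly they are transcribed.

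In mm10 the 3 chain genes stand together on chromosome 17, H2-Ab1 at chr17:34257689-34269419 on the plus strand, H2-Aa at chr17:34282744-34287823 on the minus strand and H2-Eb1 at chr17:34305867-34316674 on the plus strand. H2-DMa, at chr17:34119541-34139101, and H2-DMb1, at chr17:34153072-34160230, lie before them on the plus strand. Ciita is on the plus strand of chromosome 16, at chr16:10480059-10528418, and Cd74 lies on another chromosome. Of the 7 genes, 3 overlap a gene of the other strand that was also counted. Gm20513, which overlaps H2-Eb1, had 0 UMIs in all 3 libraries. Brd2 overlaps the upstream transcripts of H2-DMa, and Dexi overlaps Ciita. Whether the authors counted by strand is not given in the sources used here, so reads of such pairs may have been split.

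RefSeq promoter windows of GRCm38.p6 were at hand for 4 of the 7 genes, and the last 150 bases before the start of transcription are printed for 3 of them. They are shown because H2-Aa and H2-Eb1 turned out to be counted in few cells and H2-DMa in many. Capitals mark the Y box core GATTGG, which NF-Y is known to bind, read on either strand, and the X box, searched on both strands as the first run of capitals in H2-Eb1 with any base at the fourth and the eighth place. Both motifs were chosen after these sequences had been read.
H2-Aa, chr17:34287824-34287973, minus strand: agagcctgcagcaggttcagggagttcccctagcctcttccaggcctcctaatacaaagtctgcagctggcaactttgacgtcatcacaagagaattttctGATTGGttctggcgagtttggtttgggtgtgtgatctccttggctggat
H2-Eb1, chr17:34305717-34305866, plus strand: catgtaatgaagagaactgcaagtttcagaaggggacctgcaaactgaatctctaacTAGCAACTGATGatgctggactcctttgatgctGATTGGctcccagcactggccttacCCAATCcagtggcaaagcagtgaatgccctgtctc
H2-DMa, chr17:34122682-34122831, plus strand: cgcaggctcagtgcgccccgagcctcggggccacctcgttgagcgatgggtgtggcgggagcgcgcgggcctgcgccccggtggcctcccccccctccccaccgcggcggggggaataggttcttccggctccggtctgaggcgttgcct
In H2-Aa the Y box core ended 44 bases before the start and no X box of these letters was found. The H2-Eb1 window held an X box 93 to 82 bases before the start, and 21 bases after its end a Y box core, 60 to 55 bases before the start. A further Y box core lay on the other strand of that window. H2-DMb1, not printed, had both motifs at nearly the same places, the X box 96 to 85 and the Y box core 62 to 57 bases before the start. The first H2-DMa window held neither, and it had 76.0% G or C against 50.7% for H2-Aa and 48.7% for H2-Eb1. A second H2-DMa window, at chr17:34125268-34125567 and not printed, held a Y box core 199 to 194 bases before its start and no X box. Brd2, on the minus strand, starts 198 bases before the first H2-DMa start, so the printed H2-DMa stretch lies between the starts of both genes. Other protein-coding transcripts of H2-DMa start at 34135628 and 34135654, and no window there was searched. Whether H2-DMa has these motifs elsewhere was thus not tested. Among 32851 promoter windows of 250 bases, 14.6% had the Y box core, 0.046% the X box letters and 0.009% both, 3 windows in all. These matches describe letters and are not shown binding sites.

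After filtering, 8857 control, 7850 non_mCherry and 10150 mCherry cells were used, with 143339512, 86852479 and 92048702 UMIs (unique molecular identifiers, each 1 captured transcript) and medians of 15416, 9242 and 8174 UMIs per cell. Of the cell barcodes, 16 to 36 were shared by a pair of libraries, at most 0.355% of the first library's. On the CPM scale, a gene's UMIs relative to all UMIs of the cells, Runx1t1, which supplies the ETO portion, had 0.216, 0.311 and 8.47, and Kit, the gate's gene, had 66.8, 56.6 and 269. Cells were put in classes by 8 marker genes each, none of them a class II gene, and a class below means cells with those markers, not a proven cell type. Many cells met the rule with the minimum of 2 markers: 11.2% of control but 86% of mCherry cells of the granulocyte class, and 63.6% and 57.6% of the stem and multipotent class. For the basophil and mast class the control and mCherry shares were 16.1% and 53.9%, and for the lymphoid-primed class 49.5% and 78.2%.

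Over whole libraries the chain genes differed by less than 2-fold, and Cd74 by up to 4.19-fold. H2-Aa, the alpha chain, had 11.3 CPM in control (1621 UMIs, interval 10.8 to 11.9), 12.8 in non_mCherry (1110 UMIs, 12.04 to 13.6) and 9.56 in mCherry (880 UMIs, 8.94 to 10.2). H2-Ab1, the beta chain of the same molecule, stood at 43.5 CPM in control (42.4 to 44.6), 65.9 in non_mCherry (64.2 to 67.7) and 61.3 in mCherry (59.7 to 62.9). H2-Eb1, the unpaired beta chain, had 4.81 CPM in control (4.45 to 5.18), 8.22 in non_mCherry (7.63 to 8.85) and 5.17 in mCherry (4.72 to 5.66). Non_mCherry was thus the highest library for each chain gene, and for H2-Eb1 the control and mCherry intervals overlapped.

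Cd74, the invariant chain, had 27.8 CPM in control (26.9 to 28.7), 57.6 in non_mCherry (56.0 to 59.2) and 13.8 in mCherry (13.01 to 14.5). Non_mCherry was 2.07-fold above control (1.99 to 2.16), and mCherry was 4.19-fold below non_mCherry (3.94 to 4.46) and 2.02-fold below control (1.90 to 2.15). Ciita was counted only 29, 33 and 75 times, which gives 0.202 CPM for control, 0.380 for non_mCherry and 0.815 for mCherry. Its mCherry level was 4.03-fold that of control (2.59 to 6.41) and 2.14-fold that of non_mCherry (1.41 to 3.34), and non_mCherry was 1.88-fold above control (1.11 to 3.21). Dexi, on the other strand of the Ciita locus, stood at 13.8, 14.2 and 33.2 CPM, and its part in the Ciita counts was not tested.

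The 2 genes of the peptide exchanger had the opposite order from Cd74. H2-DMa, its alpha chain, had 132 CPM in control (130 to 133), 111 in non_mCherry (108 to 113) and 166 in mCherry (164 to 169). H2-DMb1, its beta chain, had 32.4, 25.8 and 39.0 CPM in the same order. In mCherry they were 1.502-fold (1.46 to 1.54) and 1.51-fold (1.43 to 1.59) above non_mCherry, and 1.26-fold and 1.20-fold above control. Brd2, which overlaps the start of H2-DMa, had 126, 121 and 184 CPM, with mCherry highest and non_mCherry lowest as for H2-DMa. Its part in the H2-DMa counts was not tested.

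**Figure D1:**
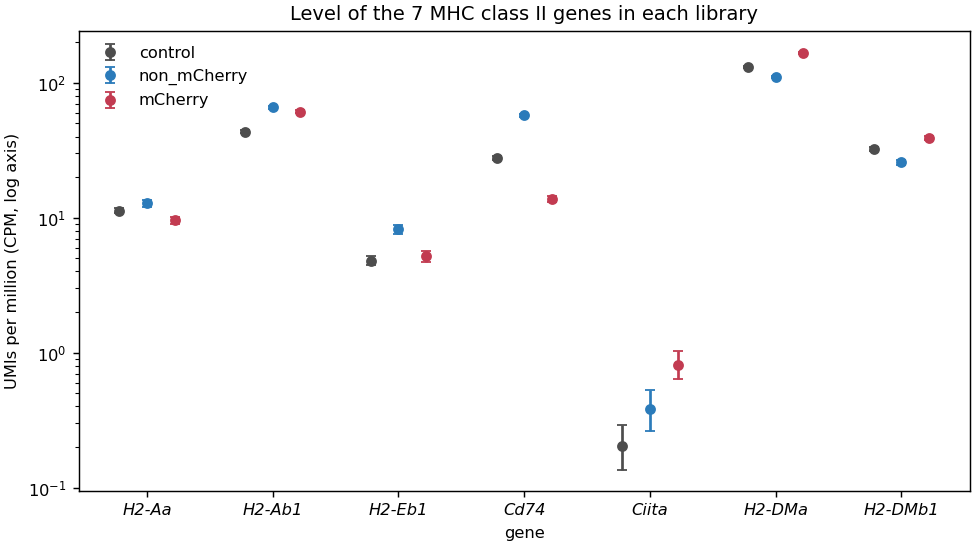
The plot shows the level of each gene in CPM on a log axis, 1 point per library with its 95% Poisson interval of the counts. Cd74 ranges from 13.8 in mCherry to 57.6 in non_mCherry, and Ciita stays below 1 CPM in every library.

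Of the 7 genes, 4 reached 20 CPM in at least 1 library of each pair, the level from which a 2-fold difference was counted. In mCherry over control, 0 of these 4 were at least 2-fold higher, beside 18.5% of 6580 genes, and 1, Cd74, was at least 2-fold lower, beside 12.3%. In non_mCherry over control Cd74 was the 1 gene at least 2-fold higher (1.4% of 5634 genes) and 0 were lower (0.319%). In mCherry over non_mCherry 0 were higher (17.6% of 6570 genes) and again Cd74 alone was lower (11.1%). The median log2 ratio of the 7 genes, with 5 CPM added, was 0.16, 0.12 and -0.10 in these comparisons, beside 0.08, -0.03 and 0.10 for all genes of 20 CPM or more. Each median is the value of a single gene: Ciita, H2-Aa and H2-Ab1. Ciita had only 29 UMIs in control and 75 in mCherry, and the added 5 CPM brings its 4.03-fold down to 0.16. Scaling by median-of-ratios size factors moved all genes by -0.20, -0.01 and -0.19, and with it H2-Eb1 in mCherry over control went from 0.05 to -0.05. The comparisons share libraries, so their values are not independent.

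The number of cells behind these totals split the genes, Ciita apart. In control, 14 of 8857 cells held 50% of the H2-Aa UMIs, 11 that of H2-Eb1 and 17 that of Cd74. For H2-Ab1 it took 710 cells, for H2-DMb1 878 and for H2-DMa 1676. Ciita had only 29 UMIs there, in 24 cells, so its 10 cells follow from the low count and cannot show concentration. The median over 8872 control genes of 5 CPM or more was 954 cells, and 0.09%, 0.06% and 0.14% of those genes were held by fewer cells than H2-Aa, H2-Eb1 and Cd74. Non_mCherry showed the same split, with 14, 11 and 25 cells for H2-Aa, H2-Eb1 and Cd74. H2-Ab1, H2-DMb1 and H2-DMa took 788, 495 and 1060 cells there, and the 33 UMIs of Ciita took 9. In mCherry the chains were less concentrated, with 84 cells for H2-Aa and 56 for H2-Eb1, while Cd74 needed 19. The 75 mCherry UMIs of Ciita lay in 74 cells, of which 37 held 50%. One mCherry cell alone held 23.9% of that library's Cd74 UMIs and 10.6% of its H2-Aa UMIs.

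**Figure D2:**
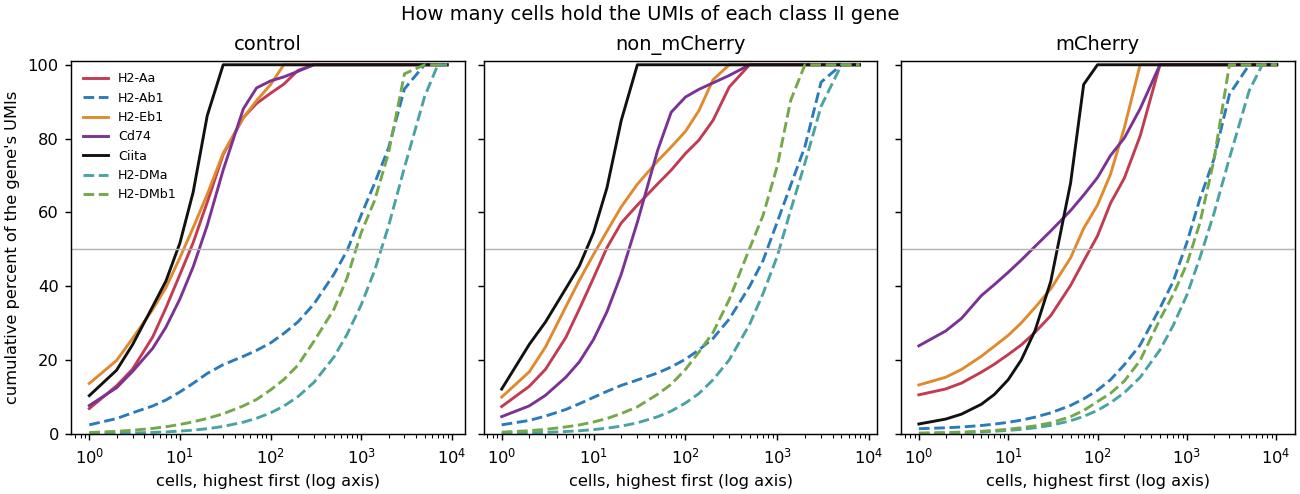
Each line gives the cumulative percent of a gene's UMIs over cells ordered from the highest, read at set numbers of cells on a log axis. Lines are full for H2-Aa, H2-Eb1, Cd74 and Ciita and dashed for the other 3. Ciita had 29, 33 and 75 UMIs in control, non_mCherry and mCherry, so few cells must hold 50% of them. In control and non_mCherry the full lines pass 50% (grey) at 9 to 25 cells and the dashed ones at 495 to 1676, and in mCherry the lines of H2-Aa and H2-Eb1 move right to 84 and 56 cells.

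H2-Ab1 was thus counted far more widely than its partner H2-Aa. Each cell was thinned at random to 2000 UMIs to make depth equal. H2-Ab1 was then seen in 7.34% of the cells in control, 12.5% in non_mCherry and 10.7% in mCherry, against 38.5%, 41.7% and 34.0% unthinned. H2-Aa was seen in 1.06%, 1.38% and 1.29%, and Cd74 in 1.19%, 2.38% and 1.36% (unthinned 2.54%, 4.68% and 4.63%, and 3.06%, 5.67% and 4.44%). Erythroid cells, assumed to lack these genes, were the reference in control and non_mCherry. There H2-Aa was seen in 0.303% and 0.861% of 1320 and 1278 cells, and H2-Ab1 in 5.23% and 10.8%, at erythroid medians of 17158 and 12581 UMIs before thinning. In non_mCherry the interval of the H2-Ab1 share in all cells (11.7% to 13.2%) overlapped the erythroid one (9.15% to 12.6%). All cells include the erythroid cells, so this overlap cannot decide whether the share exceeds background. Larger classes of that library were also read, without the class II-high cells described below. B lineage cells alone lay wholly above the erythroid interval, at 15.3% (13.7% to 16.9%). T, NK and innate lymphoid cells lay below it, at 4.14% (1.68% to 8.35%). The others overlapped it, such as granulocyte cells at 11.1% (9.93% to 12.5%). The mCherry library had only 12 erythroid cells, 0 of them with H2-Aa or H2-Ab1, which allows a share of up to 25% by the limit of 3 counts. At least 2 UMIs of the 3 chain genes together were found in 1.11% (0.899 to 1.35), 1.86% (1.57 to 2.18) and 1.74% (1.498 to 2.02) of cells, against 0.152% (0.0184 to 0.546) and 1.17% (0.658 to 1.93) in control and non_mCherry erythroid cells. The intervals of all cells and erythroid cells overlapped in non_mCherry and not in control. The intervals of the non_mCherry and mCherry shares overlapped.

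The quotient of the 2 partner genes changed from class to class. Capture can differ between genes, so only its change is described. In control, H2-Ab1 over H2-Aa UMIs was 0.86 in conventional dendritic, 0.93 in monocyte and macrophage and 1.56 in B lineage cells, but 21.3 in granulocyte and 32.8 in erythroid cells. The part of free RNA in these counts was not tested. Control erythroid cells had 30.8 CPM of H2-Ab1 and 0.941 CPM of H2-Aa, and control megakaryocyte cells had 30.4 CPM of H2-Ab1 with 0 UMIs of H2-Aa. H2-DMa stood at 45.1 CPM in control erythroid cells, 36.8 in B lineage cells, 144 in granulocyte cells and 748 in conventional dendritic cells.

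The few conventional dendritic cells had the highest H2-Aa, H2-Ab1, H2-Eb1 and Cd74 levels of the named classes in control and non_mCherry. In control, 6 such cells, 0.07% of the library, had 4400 CPM of H2-Aa, 3788 of H2-Ab1, 1678 of H2-Eb1, 10683 of Cd74, 748 of H2-DMa and 1134 of H2-DMb1, and they held 11.97% of all H2-Aa UMIs. In non_mCherry 3 such cells had 8586 CPM of H2-Aa and 22895 of Cd74 and held 12.2% of the H2-Aa UMIs. mCherry had 0 cells of either dendritic class. Plasmacytoid dendritic cells numbered 9 in control, with 554 CPM of H2-Aa and 1724 of Cd74, and 10 in non_mCherry, with 10.5 and 52.3 CPM, of which 8 had only the minimum of 2 markers. The control level came from few cells, since 2 of the 9 had any H2-Aa UMI, 2 were class II-high, and the median Cd74 count was 1. With fewer than 50 cells a library, no ratio is given for dendritic cells. The 2 dendritic classes together held 6.26% of the chain UMIs in control and 5.87% in non_mCherry, and 10.7% and 10.2% when another random thinning chose the cells.

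Among the named classes of control, monocyte and macrophage cells held the largest share of H2-Aa, H2-Eb1 and Cd74, whereas granulocyte cells held 47.5% of H2-Ab1, 67.2% of H2-DMa and 70.02% of H2-DMb1. Granulocyte cells were 4873 of the 8857 control cells, so large shares go with the size of the class. Their levels were 33.6, 144 and 37.0 CPM of these 3 genes, against 43.5, 132 and 32.4 in the whole library. The 158 control monocyte and macrophage cells had 42.6% of the H2-Aa and 37.6% of the Cd74 UMIs, at 311 and 676 CPM. In the 130 non_mCherry cells H2-Aa stood at 120 CPM, 0.38-fold of control (0.33 to 0.45), and Cd74 at 283 CPM, 0.42-fold (0.38 to 0.46), while H2-DMa was 302 against 309 CPM. Of these cells 22 in control and 6 in non_mCherry were class II-high, a group defined after the B lineage and plasma cells. Without them the class had 19.2 CPM of H2-Aa in control (13.6 to 26.2) and 3.81 in non_mCherry (1.40 to 8.30). The 33 mCherry cells of the class, 32 of them with just 2 markers, had 3.18 CPM of H2-Aa from 1 UMI and 47.7 CPM of Cd74.

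B lineage cells were many in non_mCherry but carried little H2-Aa, H2-Eb1 and Cd74. The 2073 non_mCherry cells of this class, 26.4% of the library, had 4.22 CPM of H2-Aa, 3.18 of H2-Eb1 and 19.4 of Cd74, with 31 cells showing any H2-Aa UMI. The 46 control cells had 147, 116 and 445 CPM, and the 21 mCherry cells had 214, 135 and 1008 CPM. A few cells carried these levels: 6 control and 6 mCherry cells had any H2-Aa UMI, 5 and 3 were class II-high, and the median Cd74 count was 0 in both libraries. H2-Ab1 stood at 88.0 CPM in the non_mCherry cells against 65.9 in their whole library, and H2-Aa at 4.22 against 12.8. These cells held 15.9% of the chain UMIs of their library but 4.77% of the H2-Aa UMIs. Igll1, part of the surrogate light chain of early B cells, had 1630 CPM in non_mCherry, 1116 in control and 225 in mCherry, and Ms4a1 (CD20), a gene of mature B cells, had 3.02, 31.2 and 95.8 CPM. The class thus differed in its stage genes between the libraries, and with 46 and 21 cells outside non_mCherry no ratio is given.

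Plasma cells were the largest source of Cd74 among the named classes of non_mCherry. The 46 cells of this class, 0.59% of the library, held 48.4% of its Cd74 UMIs at 6530 CPM, with 72.8 CPM of H2-Aa. Of them 43 had a Cd74 UMI, from 0 to 104 with a median of 51.5, and 42 had 10 or more, 38 of these 42 with no H2-Aa UMI. In control the 14 cells of the class held 13.5% of Cd74 at 4367 CPM, and 9 of its 10 cells with 10 or more Cd74 UMIs had none of H2-Aa. Jchain, the joining chain of secreted antibodies, stood at 55878 and 52582 CPM in these cells, and Pax5, the B cell factor, had 1 UMI and 0. The 9 mCherry cells of the class all rested on 2 markers and had 0 UMIs of both Jchain and Cd74, so they go against the name.

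**Figure D3:**
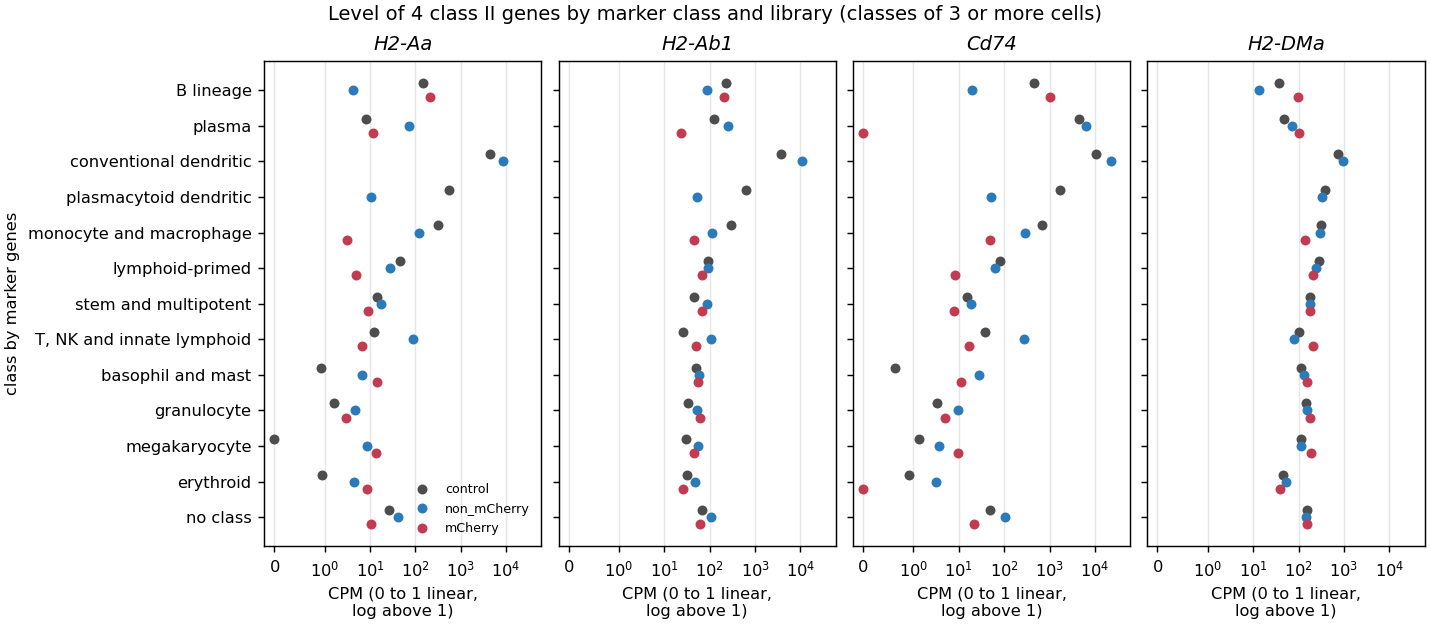
Each point is the level of a gene in 1 marker class of 1 library, in CPM on an axis that is linear from 0 to 1 and logarithmic above, for classes of 3 or more cells. H2-Aa and Cd74 range over several powers of 10 between classes, up to 8586 and 22895 in conventional dendritic cells, while control H2-Ab1 stays between 30.4 and 33.6 in granulocyte, megakaryocyte and erythroid cells.

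Cells with strong class II expression were also taken without markers, as those with at least 1000 CPM and at least 5 UMIs of H2-Aa and H2-Eb1 together, a limit set after the data were seen. There were 47 such cells in control (0.531%, interval 0.390 to 0.705), 26 in non_mCherry (0.331%, 0.216 to 0.485) and 10 in mCherry (0.0985%, 0.0473 to 0.181). They held 83.6%, 59.6% and 20.8% of the H2-Aa UMIs, 74.8%, 38.0% and 41.2% of Cd74, and 20.1%, 13.6% and 2.53% of H2-Ab1. Ciita followed them in control, where 55.2% of its 29 UMIs lay in these cells, but not in mCherry, where 1 of 75 did. Of the 47 control cells, 22 were in the monocyte and macrophage class, 6 were conventional dendritic, 5 B lineage and 5 in no class. The 26 of non_mCherry spread over 7 in no class, 6 monocyte and macrophage, 4 T, NK and innate lymphoid, 3 B lineage and 3 conventional dendritic cells, and 1 each in the plasma, granulocyte, and basophil and mast classes.

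Genes outside the list marked these cells in control and non_mCherry. Lsp1, a leukocyte cytoskeleton gene, had a UMI at equal depth in 42 of the 47 control cells (8.99% of other cells) and in 21 of the 26 non_mCherry cells (10.9%). Id2, a factor of conventional dendritic cells among others, was seen in 32 of 47 (2.20%) and 17 of 26 (3.03%), and Batf3, another such factor, in 13 of 47 (0.16%) and 6 of 26 (0.04%). Xcr1, like Batf3 a marker of the conventional dendritic class, was seen in 0 of 47 and 2 of 26. Il7r, a marker of the lymphoid-primed class, was seen in 3 of 47 (1.12%) and 9 of 26 (6.08%). Kit, the gate's gene, had a UMI in 14 of 47 control cells (57.3% of other cells) and 10 of 26 non_mCherry cells (38.9%), unthinned. Median depths were 7430 and 5614 UMIs against 15481 and 9256 in other cells. Over all 8857 control cells the genes whose counts went most with the sum of the 3 chains were Lgals3, Lsp1, Cst3, Ifi30, Ctss, Crip1, Psap and Cd52, with Pearson's r from 0.26 to 0.15 at equal depth. The points share 1 library and the same thinning, and the values describe it only. In mCherry the highest value of such a gene was 0.089, too weak to count as a finding.

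The 10 class II-high mCherry cells carried other genes. The cell with most H2-Aa and H2-Eb1 had 156 UMIs of both among 12252, with 302 of Cd74, and it carried 88 UMIs of C1qa, 86 of C1qb, 80 of Vcam1 and 52 of Cd5l, genes of tissue macrophages, beside 1 of Kit. Those 4 genes had 0 UMIs in the highest 3 control and the highest 3 non_mCherry cells, which had 176 to 248 and 195 to 244 UMIs of Cst3, a gene that is strong in dendritic cells. Of the 10 cells, 4 were in the basophil and mast class, 3 in B lineage, 2 in stem and multipotent and 1 in no class, and 4 had a C1qa UMI at equal depth against 0.31% of other cells. All 10 had Cpa3, a mast cell protease gene, as did 98.9% of the other mCherry cells. Its amount differed, since the cell with most H2-Aa and H2-Eb1 had 1 UMI of Cpa3. The others of the highest 3 mCherry cells had 87 and 93. Free RNA or 2 cells in 1 droplet were not tested for these cells beyond the doublet score.

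The level in the cells outside the class II-high group is given as a description. The group was set by H2-Aa and H2-Eb1 counts, so leaving it out lowers these 2 genes most where it held most, in control. H2-Aa then stood at 1.86 CPM in control (266 UMIs, 1.64 to 2.10), 5.17 in non_mCherry (448 UMIs, 4.70 to 5.67) and 7.58 in mCherry (697 UMIs, 7.03 to 8.16), and H2-Eb1 at 0.811, 2.90 and 3.85 CPM. The order of the libraries in all cells was another for both genes. Ciita had 0.0909, 0.219 and 0.805 CPM, in the same order as in all cells. Cd74 stood at 7.03, 35.8 and 8.10 CPM, with mCherry 1.15-fold above control (1.05 to 1.27) instead of below it. These cells include the plasma cells of non_mCherry but for 1 that was class II-high. H2-Ab1 stood at 34.8, 57.1 and 59.8 CPM, and its mCherry over non_mCherry quotient went from 0.93 to 1.05 (1.01 to 1.09). H2-DMa, at 130, 110 and 166 CPM, and H2-DMb1, at 30.9, 24.9 and 38.9, kept their order. Most cells with H2-Aa here had a single UMI of it: 140 of 178 in control, 276 of 341 in non_mCherry and 332 of 460 in mCherry. Of the cells with H2-Aa, 21.3%, 25.8% and 26.5% also had Cd74 in control, non_mCherry and mCherry, against 2.15%, 4.42% and 3.30% of those without it, at unequal depth.

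**Figure D4:**
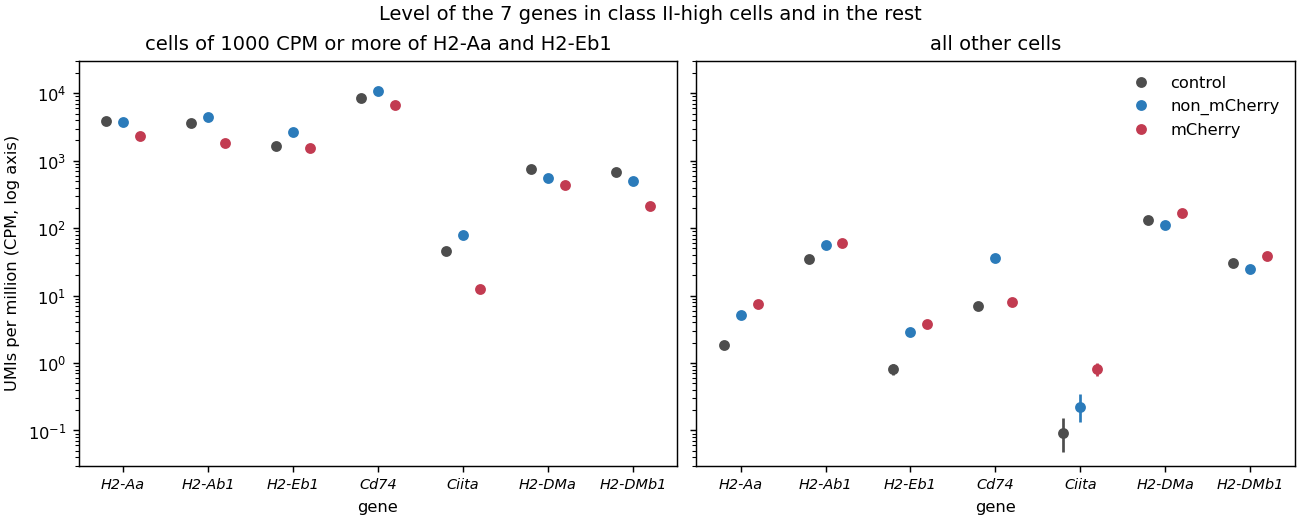
Points give the level of each gene in CPM on a log axis, on the left in the 47, 26 and 10 class II-high cells and on the right in all other cells, where lines are 95% Poisson intervals. On the left the mCherry points are the lowest for every gene, and on the right mCherry is highest for all genes but Cd74.

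Stem and multipotent cells had more H2-Aa than granulocyte cells in every library. Outside the class II-high cells they had 13.7 CPM in control (9.99 to 18.3, 340 cells), 17.7 in non_mCherry (10.3 to 28.3, 143 cells) and 8.17 in mCherry (6.97 to 9.52, 2257 cells). Granulocyte cells of the same libraries had 1.09 (0.884 to 1.33), 3.30 (2.74 to 3.93) and 2.91 CPM (2.18 to 3.81), and the intervals of the 2 classes did not overlap in any library. Other classes did overlap. In control these were monocyte and macrophage (19.2 CPM, 13.6 to 26.2) and T, NK and innate lymphoid cells (1.07 to 15.2). In non_mCherry they were lymphoid-primed (27.8 CPM, 19.6 to 38.3), T, NK and innate lymphoid (8.72 to 31.3) and megakaryocyte cells (4.75 to 14.6). Cells tied between classes (7.74 to 26.2) and of no class (11.4 to 17.2) overlapped there too. In mCherry they were megakaryocyte (6.64 to 25.5), lymphoid-primed (3.21 to 7.32), tied (5.75 to 12.7) and no class cells (5.81 to 7.92). At 2000 UMIs a cell, H2-Aa was seen in 3.53% of the control stem and multipotent cells against 0.287% of granulocyte and 0.303% of erythroid cells, whose medians were 8759, 18230 and 17158 UMIs before thinning. Cd74 there stood at 12.8, 18.7 and 6.58 CPM, against 2.24, 5.81 and 4.89 CPM in granulocyte cells. The Cd74 intervals of the 2 classes overlapped in mCherry (5.50 to 7.80 and 3.92 to 6.01) and not in control and non_mCherry. H2-Ab1 over the whole class was 45.0 CPM in control, 87.4 in non_mCherry and 66.4 in mCherry.

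The sum of the 3 chain genes in this class gave a log2 ratio of 0.29 for mCherry over control (0.04 to 0.54), 0.81 for non_mCherry over control (0.36 to 1.25) and -0.52 for mCherry over non_mCherry (-0.84 to -0.18). Without H2-Ab1 the first of these turned to -0.41, since H2-Aa was lower in mCherry than in control there (0.62-fold, 0.45 to 0.87) and H2-Ab1 higher (1.48-fold, 1.25 to 1.76). With at least 3 markers required it was -0.09. The direction of the mCherry over control value in this class thus depends on the gene and on the class limit.

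Of the 4 mCherry classes over 500 cells, basophil and mast cells had the highest H2-Aa level. The name is weak in this library. Cpa3, 1 of the 8 markers of the class, was seen at equal depth in 98.9% of mCherry cells outside the class II-high group. Just 2 markers were found in 53.9% of the 2393 cells of the class. Outside the class II-high cells, 2389 of them had 12.5 CPM (10.99 to 14.2) against 2.91 CPM (2.18 to 3.81) in granulocyte cells. Stem and multipotent cells had 8.17 CPM (6.97 to 9.52), and the 88 megakaryocyte cells had 13.9 (6.64 to 25.5). At equal depth 1.76% (1.27 to 2.37) of basophil and mast cells had a UMI, against 0.341% (0.125 to 0.740) of granulocyte cells. Their medians were 7413 and 9099 UMIs before thinning. The share in stem and multipotent cells, 1.46% (1.01 to 2.05), overlapped that of basophil and mast cells. In control and non_mCherry the basophil and mast class had 0.937 CPM (0.193 to 2.74) and 2.12 CPM (0.779 to 4.62) from 3 and 6 UMIs. The class held different cells in the libraries: Cpa3 stood at 1959, 2481 and 13990 CPM, Mcpt8, a basophil protease gene, at 4990, 4666 and 285 CPM, and Cma1, a mast cell chymase gene, at 139, 230 and 2535 CPM. What share these cell kinds had in the H2-Aa difference was not tested.

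H2-Ab1 was also compared within classes. In non_mCherry over control it was above 1-fold in 6 of 8 classes of 50 or more cells, in 5 of them with the whole interval above 1. It was 1.54-fold in granulocyte (1.45 to 1.63), 1.503-fold in erythroid (1.37 to 1.65) and 1.94-fold in stem and multipotent cells (1.47 to 2.56). Erythroid cells were the reference class above. The 5 classes also included T, NK and innate lymphoid cells at 4.13-fold (2.34 to 7.78), where 4 non_mCherry cells and 1 control cell were class II-high. Without these cells H2-Ab1 had 28.6 CPM in non_mCherry (16.9 to 45.2) and 22.5 in control (11.98 to 38.5), with overlapping intervals. Lymphoid-primed cells, at 0.96-fold, went the other way. Without class II-high cells they had 90.2 CPM in non_mCherry (74.8 to 108) against 57.2 in control (49.0 to 66.3). In monocyte and macrophage cells it was 0.40-fold, but without the class II-high cells it stood at 31.9 CPM in control (24.7 to 40.7) and 32.4 in non_mCherry (24.1 to 42.6). In mCherry over control 4 of 5 classes were above 1-fold and 2 with their whole interval, among them granulocyte cells at 1.78-fold (1.66 to 1.91), while lymphoid-primed cells were at 0.72-fold (0.61 to 0.85). Without the 2 class II-high control cells of that class, control had 57.2 CPM (49.0 to 66.3) against 67.6 in mCherry (60.6 to 75.2), which turns the direction with overlapping intervals. In mCherry over non_mCherry 1 of 5 classes was above 1-fold, and 2 had their whole interval below 1. H2-DMa changed less, from 0.78-fold to 1.15-fold over the 8 classes of non_mCherry over control. Lymphoid-primed cells had 45.2, 27.8 and 4.96 CPM of H2-Aa and 82.0, 62.4 and 8.13 CPM of Cd74 in control, non_mCherry and mCherry, but the control levels rest on the same 2 cells. Without them control had 3.92 CPM of H2-Aa (2.03 to 6.85) and 5.88 of Cd74 (3.49 to 9.30), both overlapping mCherry (3.21 to 7.32 and 5.83 to 11.03). Non_mCherry had 0 class II-high cells in the class, and its intervals (19.6 to 38.3 and 49.7 to 77.3) lay above both.

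The other 31 genes of a list of the class II pathway gave a mixed picture. In mCherry over control 17 of them reached 20 CPM, of which 4 were at least 2-fold higher and 4 at least 2-fold lower, beside 18.5% and 12.3% of all genes, with a median log2 ratio of -0.0038 for the 31. Among factors at the promoters, Rfx5, the DNA-binding part of RFX, stood at 8.04 CPM in control, 10.2 in non_mCherry and 23.97 in mCherry, and the other 6 of its group were within 2-fold or below 20 CPM. Among the peptide exchange genes, H2-Ob, part of the H2-DM inhibitor H2-O, had 9.62, 12.04 and 28.7 CPM. Of the genes known to act on Ciita, Irf1, an interferon response factor, had 19.5 CPM in control, 56.6 in non_mCherry and 106 in mCherry, its highest level. The treatment with poly(I:C), which raises interferon, and the genotype cannot be told apart in this value. Irf8, a factor of monocytes and dendritic cells, stood at 263, 186 and 15.5 CPM, and Spi1 (PU.1), a myeloid and B cell factor, at 187, 147 and 73.5 CPM.

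The lysosomal genes of the list split. Ctss, the protease that trims the invariant chain in dendritic and B cells, had 23.1, 31.3 and 2.04 CPM, 11.3-fold lower in mCherry than in control (9.78 to 13.2), and Ifi30, a lysosomal thiol reductase, had 36.0, 49.9 and 4.71 CPM, 7.64-fold lower (6.93 to 8.45). The other 5 did not reach a 2-fold difference there, such as Ctsd at 153, 159 and 254 CPM and Sppl2a, which clears the invariant chain stub, at 45.4, 44.1 and 50.5 CPM. In non_mCherry over control 2 of 16 genes were at least 2-fold higher, Irf1 at 2.90-fold and Pax5, which had 0.600 CPM in control and 39.2 in non_mCherry, and 0 were lower, beside 1.4% and 0.319% of all genes. In mCherry over non_mCherry 2 of 18 were higher, H2-Ob and Rfx5, beside 17.6% of all genes, and 5 were lower, Ctss, Ifi30, Irf8, Spi1 and Pax5, beside 11.1%. Co-stimulatory genes were rare, with at most 17 UMIs of Cd40 and 5 of Cd80 in a library, and Cd86 at 3.03, 1.62 and 0.902 CPM.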

How the data were processed

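Whole UMI counts per gene and cell were deposited by the authors, made with Cell Ranger 6.1.2 on mm10 per the submitters' processing notes, while the file headers carry version 3.1.0. Genes were located with GENCODE M21. Kept barcodes had at least 1000 genes, at least 2000 UMIs and at most 10% mitochondrial UMIs, and of these likely doublets (Scrublet score above 0.25, 2.31% to 2.58% of each library) were removed. CPM scales a gene's sum over the kept cells to their total UMIs, and a fold is a plain quotient of CPM. Log2 ratios have 5 CPM added. A cell took the class with most distinct markers of 13 lists among 2000 drawn UMIs, at least 2. Intervals are exact Poisson or Clopper-Pearson at 95%. With 1 library per group no p-value was computed. The fold, thinning and class steps were tested on simulated data. The members, marker lists and pathway list were chosen with earlier results of these data known. Genes named are the 7 members, the pathway list, the 8 genes closest to the chain sum per library, markers of a named class, Runx1t1 and Kit; overlapping genes, stage genes and genes of class II-high cells were chosen after their values were seen. Of the pathway list, 1 gene is counted but not reported here. Python 3.11.15, numpy 2.4.6, scipy 1.17.1, pandas 2.3.3 and scanpy 1.11.5 were used.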

Additional observations from a re-analysis of the deposited data

Results flagged for a closer look

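Barcodes that the filters left out carried class II counts. The 3 chain genes stood at 192 CPM in the 1695 barcodes left out of non_mCherry and at 110 CPM in the 904 left out of mCherry, against 87.5 CPM in the 716 left out of control. Cd74 stood at 213 CPM in those of non_mCherry against 127 CPM in those of control. They were singled out because they exceed the control barcodes left out in the same way, though for mCherry the interval of the chains (92.6 to 131) overlapped that of control (70.9 to 107). Among barcodes under 2000 UMIs, 18 of B lineage in control had 892 CPM of H2-Aa and 3841 of Cd74, with Ms4a1 at 543 CPM. The 1002 such barcodes in non_mCherry had 16.9 and 179 CPM, with Igll1 at 3179 and Ms4a1 at 28.0 CPM.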

How the results depend on the processing

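No paired analysis was possible because each group is 1 library and no test was made. The median log2 ratio of the 7 genes in mCherry over control (0.16) became 0.058 with median-of-ratios scaling, 0.26 with 1 CPM added, 0.28 over members of at least 20 CPM and 0.34 without the class II-high cells. In non_mCherry over control (0.12) it became 0.44 without these cells. In mCherry over non_mCherry (-0.10) it became -0.28 with median-of-ratios scaling, and turned to 0.21 over members of at least 20 CPM and 0.16 without the class II-high cells. Keeping doublets or all barcodes left the 3 medians within their counting intervals. Without the class II-high cells, which were chosen by H2-Aa and H2-Eb1 themselves, mCherry over control turned to 0.87 for H2-Aa and 0.12 for Cd74, and mCherry over non_mCherry to 0.31 for H2-Aa, 0.062 for H2-Ab1 and 0.16 for H2-Eb1; median-of-ratios scaling turned H2-Eb1 in mCherry over control to -0.047.

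The share of cells with 2 chain UMIs in control, non_mCherry and mCherry was 0.429%, 0.554% and 0.230% for all barcodes at 500 UMIs, 2.20%, 4.19% and 4.96% at 4000 UMIs, and 13.7%, 16.9% and 14.6% with no thinning. It was 7.97%, 13.6% and 11.9% with 1 UMI required, 0.587%, 0.561% and 0.404% with 3, and 0.666%, 0.561% and 0.345% without H2-Ab1. The highest library was thus mCherry at 4000 UMIs, control with 3 UMIs required or without H2-Ab1, and non_mCherry in the other settings of this list. At 4000 UMIs the cells below that depth drop out, 295 in control, 1095 in non_mCherry and 337 in mCherry. The cells compared at that setting are thus not the same as at 2000. In another draw at 2000 UMIs the shares were 1.12%, 1.62% and 1.81%, with mCherry highest.

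The share of chain UMIs in B lineage cells of control (2.04%) was 0.710% at 4000 UMIs and 4.03% without H2-Ab1. For non_mCherry (15.9%) it was 17.1% with doublets kept, 16.9% in another thinning draw and 5.10% without H2-Ab1. For mCherry (1.40%) it was 0.513% at 500 UMIs, 0.102% at 4000, 0.9003% with markers read without thinning, 4.57% without H2-Ab1 and 0.915% in another draw. In dendritic cells the control share (6.26%) was 5.25% at 500 UMIs, 4.99% at 4000, 2.46% with 3 markers, 18.5% with markers read without thinning, 14.2% without H2-Ab1 and 10.7% in another draw. The non_mCherry share (5.87%) was 3.53%, 11.3%, 11.7%, 14.7% and 10.2% at 500 UMIs, at 4000, without thinning of markers, without H2-Ab1 and in another draw. The mCherry share was 0 in each of these settings.

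In stem and multipotent cells, mCherry over control (0.29) turned to -0.093 with 3 markers and to -0.41 without H2-Ab1, and was 0.040 with markers read without thinning, while mCherry over non_mCherry (-0.52) was -0.89 without H2-Ab1. With 3 markers the 2 ratios with non_mCherry, and the planned ratios within B lineage and dendritic cells, were not run because a library had under 50 cells of the class. The number of class II-high mCherry cells (10) was 32 at 500 CPM and 5 at 2000 CPM. The alternatives without H2-Ab1, without class II-high cells, with another draw and with other CPM limits were chosen after seeing the data. Where no cause is named, the cause was not tested.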
